A study of Rattus norvegicus with 4 samples.

Results

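The nitric oxide synthase genes Nos1, Nos2 and Nos3, 3 of 720 genes named on the array, were followed through every probe set that the platform annotation assigned to them. There were 10 such probe sets among 1263 that were not Affymetrix controls, with 2 for Nos1, 7 for Nos2 and 1 for Nos3. The cells were rat cortical neurons prepared at embryonic day 17 and grown for 14 days in Neurobasal medium with B27 supplement. Before RNA was taken, cultures received 25 mM KCl for 4 h (2 arrays, KCl 1 and KCl 2) or phosphate-buffered saline for the same time (2 arrays, control 1 and control 2). Raised extracellular potassium depolarizes neurons, and the design looks for genes that respond to this. The titles and treatment protocols agree on these groups, although a description label calls all 4 samples non-activated. Whether a group's arrays came from separate cultures is not stated, so the p-values reflect a spread between samples that may be technical.

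Nitric oxide synthases make nitric oxide, a diffusible messenger, from arginine. Nos1 encodes the neuronal enzyme (listed by RefSeq also as bNOS), which calcium-bound calmodulin switches on and which is made in the cortex mainly by a sparse class of inhibitory neurons. Nos3 encodes the endothelial enzyme (eNos), also switched on by calcium and calmodulin. Nos2 encodes the inducible enzyme (iNos), which stays active at resting calcium and is controlled mainly through its transcription, classically in macrophages, microglia and astrocytes given inflammatory signals.

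After KCl, 1 of the 10 probe sets, U16359cds_at of Nos2, rose. The geometric mean of its KCl values was 3.62-fold above the highest background value, used because its control values lay within background. This is a rough figure, as the background value belongs to another probe set and no sampling error is included. The other 6 probe sets of Nos2 had log2 changes between −0.78 and 0.45. The probe sets of Nos1 and Nos3 had log2 changes of −0.45, 0.25 and 0.12. Intensities are linear, in arbitrary units, and levels of different probe sets are not comparable with each other. The 19 probe sets for bacterial and yeast transcripts that serve here as background had a median of 9.05 and a highest value of 73.7. Values at or below 73.7 are called within background. This cutoff comes from a single probe set, AFFX-PheX-3_at, and the highest value of the other background probe sets was 42.2. Values between 42.2 and 73.7 thus count as within background only because of that probe set. Among them, all of Nos2, are both KCl values of U48829_s_at and of U03699complete_seq_at. The control 2 values of U16359cds_at and D83661_s_at and the control 1 value of S71597_s_at are others. U03699complete_seq_at, S71597_s_at and D83661_s_at are therefore within background on all arrays only by the cutoff of 73.7. With 42.2 instead, U03699complete_seq_at would be above background on the KCl arrays only.

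Of the 10 probe sets, 8 lay within background on all 4 arrays, as did 436 of the 1263. The exceptions were 2 probe sets of Nos2, U16359cds_at, which was above background on the KCl arrays, and U48829_s_at, which was above it on the control arrays. Differences were tested with limma on log2 intensities, with adjustment over 947 probe sets after the dimmest 25% by mean (means up to 33.3) had been left out. Of the 10, 5 entered this test, all of Nos2, and 1 passed at an adjusted p below 0.05, against 10.8% of the 947 in either direction and 5.49% as higher. The same probe set alone had an unadjusted p below 0.05, as did 25.6% of the 947. The median log2 change of the 5 was 0.33, and that of the 947 was −0.10. The 5 others, both of Nos1, the one of Nos3 and 2 of Nos2, were too dim to be tested.

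**Figure D1:**
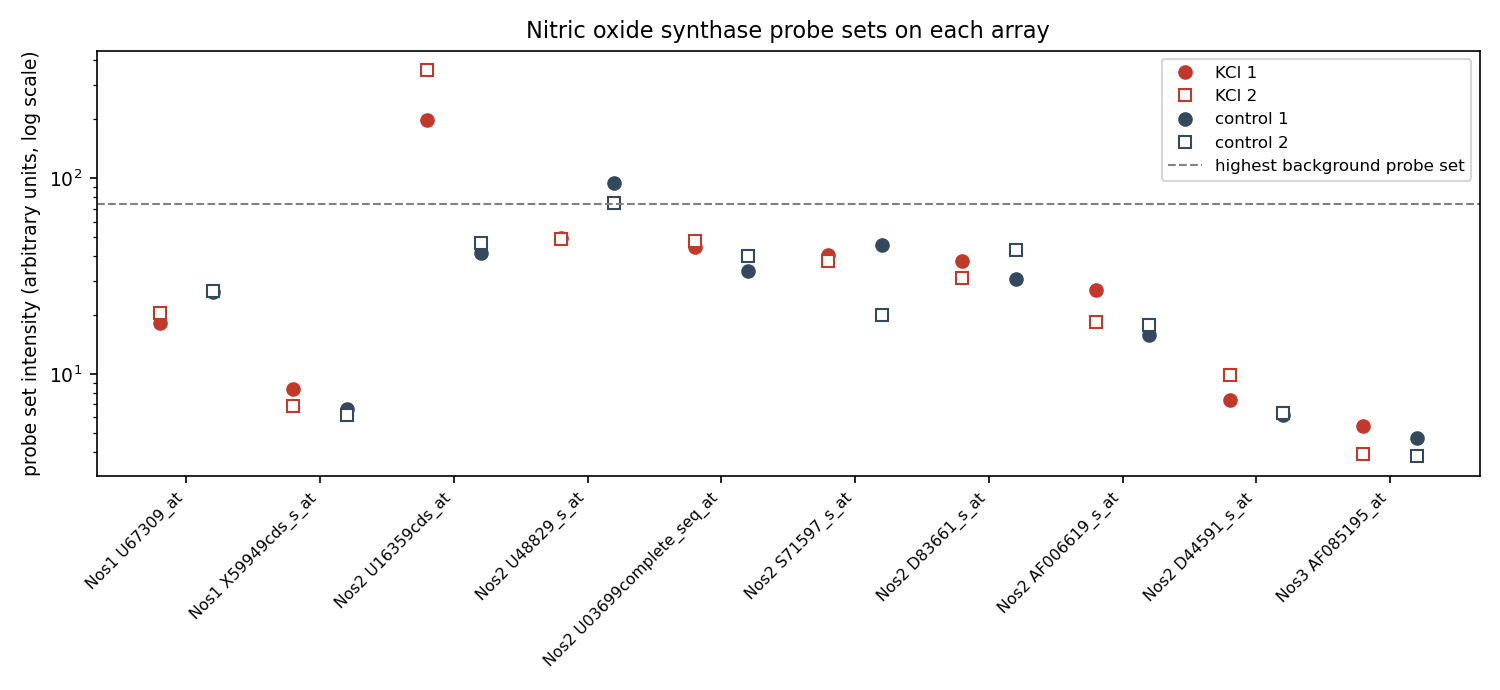
Intensity of each nitric oxide synthase probe set on each array, on a log axis in arbitrary units; red points are KCl arrays and dark points are control arrays. U16359cds_at stands at 199 and 357 on the KCl arrays, above the dashed line at the highest background value of 73.7, and at 41.5 and 46.5 on the control arrays.

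The responding probe set, U16359cds_at, read 199 on KCl 1 and 357 on KCl 2, against 41.5 on control 1 and 46.5 on control 2. Both KCl arrays were thus far above both control arrays, and the control values lay within background. The KCl mean was 278 ± 112 and the control mean 44.0 ± 3.5 (SD, n = 2 arrays each), and the log2 change was 2.60 ± 0.33 (SE; limma adjusted p = 0.0016). The measured ratio of geometric means was 6.07, but the control values cannot be told from background. Set against the highest background value instead, the geometric mean of the KCl arrays was 3.62-fold higher, which is the rough figure given above. With all intensities below 73.7 raised to it, a setting chosen after seeing the data, the log2 change was 1.86 ± 0.31 (limma adjusted p = 0.028). The floor sets both control values to 73.7, so they show no spread. For this probe set, the SE and p then reflect the spread of the KCl pair alone and are no separate check of the call.

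The KCl arrays were unlike each other on this probe set, KCl 2 being 1.79-fold above KCl 1, and 9.5% of the 947 probe sets had a KCl pair at least as far apart. The call ended without control 1 (log2 change 2.52, limma adjusted p = 0.14) and without control 2 (2.68, adjusted p = 0.16), where the spread comes from the KCl pair alone. It also ended without the intensity trend in the variance (adjusted p = 0.055) and with an ordinary t statistic (adjusted p = 0.29).

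Probe sets with both control arrays within background and both KCl arrays above it numbered 16, of which 6 were called higher. U16359cds_at was one of these 6. Another was a probe set of Bdnf, the gene of brain-derived neurotrophic factor, with 206 and 184 on the KCl arrays and 30.7 and 43.2 on the control arrays. Hmox1, the gene of heme oxygenase 1, which breaks down haem, was also among the 6, with 196 and 162 on the KCl arrays and 52.7 and 53.8 on the control arrays.

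**Figure D2:**
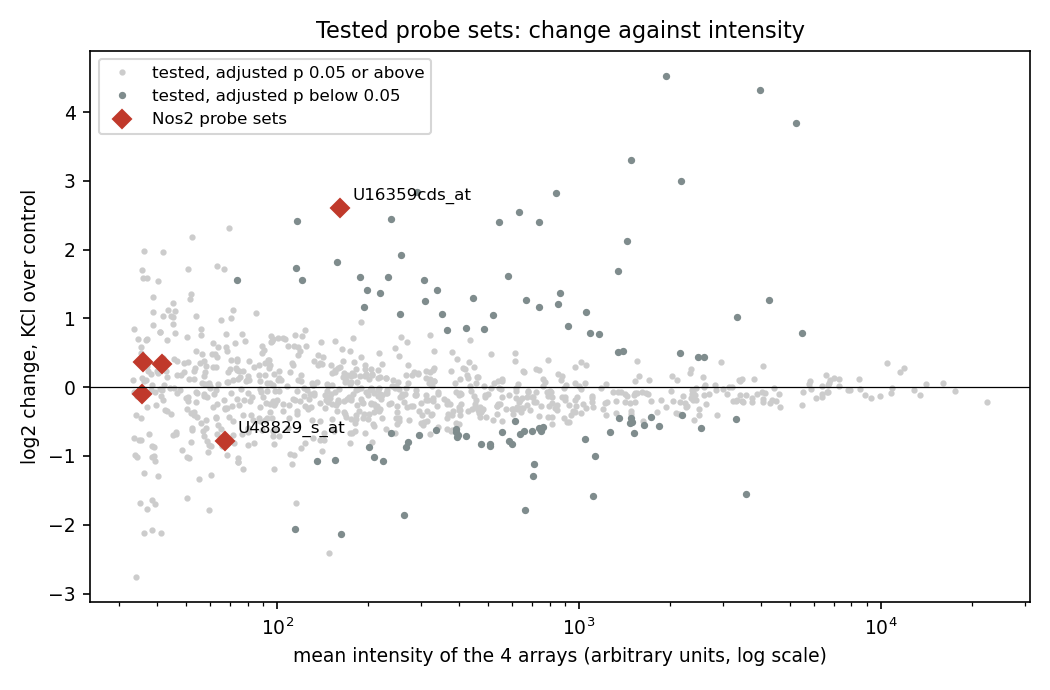
Log2 change of KCl over control against the mean intensity of the 4 arrays (log axis) for the 947 tested probe sets; red diamonds are the 5 tested probe sets of Nos2. U16359cds_at lies at a log2 change of 2.60 and U48829_s_at at −0.78, and the other 3 lie close to 0 among the dimmest probe sets.

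U48829_s_at pointed the other way. It read 49.6 and 48.8 on the KCl arrays, against 94.9 and 75.2 on the control arrays. The groups did not overlap, yet the log2 change of −0.78 ± 0.37 did not pass (limma adjusted p = 0.23). Its unadjusted limma p was 0.012 without the intensity trend and 0.049 with quantile normalization, and 0.044 by an ordinary t statistic. After adjustment it did not pass in these settings either (adjusted p = 0.13, 0.20 and 0.29). The KCl values were within background and the control values just above it, a pattern shared by 14 of the 1263 probe sets.

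The 3 other tested probe sets of Nos2 lay within background on every array. U03699complete_seq_at read 44.7 and 47.9 on the KCl arrays, against 33.6 and 40.2 on the control arrays, with a log2 change of 0.33 ± 0.51 (limma adjusted p = 0.72). S71597_s_at read 40.4 and 37.6 on the KCl arrays, against 45.4 and 20.0 on the control arrays, so that its groups overlapped (log2 change 0.37 ± 0.65, limma adjusted p = 0.76). The groups of D83661_s_at overlapped as well, at 37.6 and 30.9 on the KCl arrays and 30.7 and 43.1 on the control arrays (log2 change −0.09 ± 0.59, limma adjusted p = 0.94). Without control 2, S71597_s_at and D83661_s_at changed sign, to −0.22 and 0.15, and without KCl 2 D83661_s_at did, to 0.05.

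The remaining pair of Nos2 was dimmer still and was not tested. AF006619_s_at read 26.8 and 18.4 on the KCl arrays, against 15.8 and 17.7 on the control arrays, a log2 change of 0.41. D44591_s_at read 7.4 and 9.9 on the KCl arrays, against 6.2 and 6.3 on the control arrays, a log2 change of 0.45. Neither pair of groups overlapped. Groups did not overlap for 3 of the 5 tested probe sets of Nos2 (58.0% of the 947) and for 7 of all 10 probe sets (52.6% of the 1263).

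**Figure D3:**
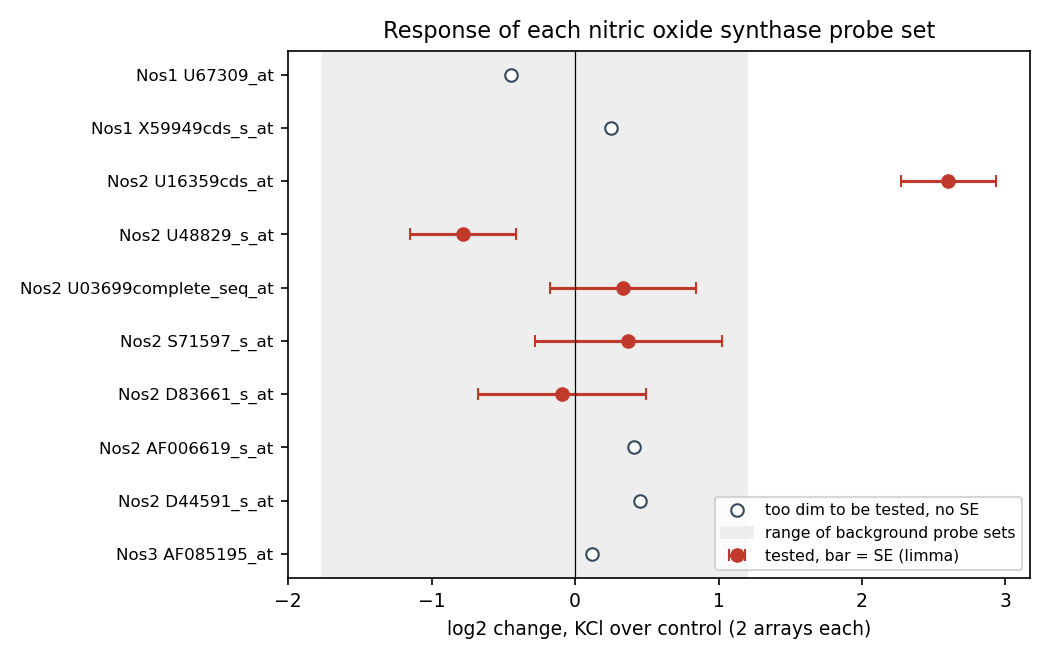
Log2 change of KCl over control for each nitric oxide synthase probe set (2 arrays per group), with limma's SE as bars for the 5 tested; open points were too dim to be tested. The shaded band runs from −1.77 to 1.20, the range of the 19 background probe sets, and U16359cds_at at 2.60 is outside it.

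The log2 changes of the 19 background probe sets, which detect no rat transcript, ran from −1.77 to 1.20. Those of all nitric oxide synthase probe sets but U16359cds_at fell inside this range. Both ends of the range came from dim probe sets that read 13.5 or less on every array. The background probe sets with the highest values, AFFX-PheX-3_at, AFFX-YEL021w/URA3_at and AFFX-DapX-5_at, had log2 changes of 0.29, 0.49 and 0.39. Those next in highest value (38.2 down to 28.8), AFFX-DapX-M_at, AFFX-LysX-M_at, AFFX-ThrX-M_at and AFFX-LysX-3_at, changed by 0.57, −0.76, 1.09 and 0.94. The range may therefore be too wide for the brightest probe sets only, and it cannot judge the −0.78 of U48829_s_at. The groups did not overlap for 8 of the 19 background probe sets either.

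The platform annotation gives all 7 probe sets of Nos2 the same gene, and each the accession of the sequence it was designed on. In the array maker's naming, a plain _at marks a probe set meant to be unique to its transcript, and _s_at one whose probes are shared by several sequences. The word cds in a name says that the target came from a coding sequence entry. U16359cds_at is one of 2 probe sets of Nos2 with a plain _at ending, and the other, U03699complete_seq_at, did not pass. The other 5 end in _s_at, and none of the 3 of them that were tested passed. In limma with the intensity trend and no further scaling, 0 had an unadjusted p below 0.05, while U48829_s_at did in the other settings given above. Across the array, 10.5% of 505 tested probe sets with a plain _at and 12.1% of 306 with _s_at were called. Of 101 with cds in the name 14.9% were called, of 4 with complete_seq 3, and of 825 with neither of these nor UTR 9.94%. These shares were not tested against each other. The stretch of the transcript that each probe set reads was not used here, and its part in the unlike responses was not tested.

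To compare responses, the within-array log2 ratio of U16359cds_at to each of the 9 other probe sets was taken on each array. In all 9 pairs both KCl arrays were above both control arrays. U16359cds_at, picked for its high KCl values, enters every pair, so this outcome largely repeats its own rise and adds no separate evidence. The size of each gap rests on values within background and is not measured exactly. With the floor at background the log2 change was 1.86 for U16359cds_at and −0.20 for U48829_s_at, and the other 8 probe sets were at the floor on every array. With 2 arrays per group the exact two-sided permutation p was 0.33 for each pair (0.33 after Benjamini-Hochberg adjustment over the 9), the smallest this test can give, so it cannot pass the threshold with so few arrays.

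Other genes also had probe sets on both sides of the threshold, although the differences between them were not tested. Of 194 genes with 2 or more tested probe sets, Nos2 among them, 41 had a called probe set, and 21 of these had exactly 1 called. The log2 changes of the tested Nos2 probe sets spanned 3.38, the widest range of the 194 genes, whose median range was 0.34. That range rests in part on values within background. With the floor at background, U16359cds_at and U48829_s_at were at 1.86 and −0.20, and the ranking was not repeated there. Bdnf had a range of 2.90 without a floor. Only 8 of the 194 genes had 5 or more tested probe sets, so the median comes mostly from genes with fewer. Nos2 and Bdnf had the most probe sets, 7 each. Of Bdnf 7 were tested and 5 rose, and of Nos2 5 were tested and 1 rose.

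**Figure D4:**
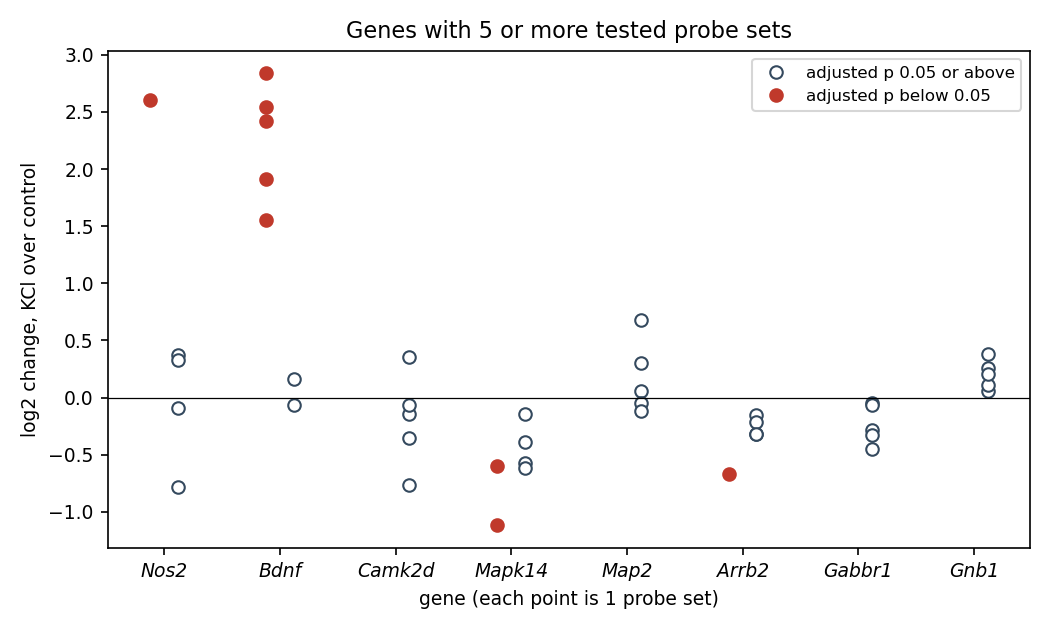
Log2 change of KCl over control for each probe set of the 8 genes with 5 or more tested probe sets; filled points had an adjusted p below 0.05. Nos2 has 1 filled point at 2.60 above 4 open ones between −0.78 and 0.37, while Bdnf has 5 filled points.

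Nos1 was at background level in these cultures as read by both of its probe sets. U67309_at read 18.3 and 20.6 on the KCl arrays, against 26.4 and 26.5 on the control arrays, a log2 change of −0.45. X59949cds_s_at read 8.4 and 6.9 on the KCl arrays, against 6.6 and 6.2 on the control arrays, a log2 change of 0.25. The groups of both were separate but in opposite directions, and both were too dim for the test. Nos3, read by AF085195_at, was at 5.4 and 3.9 on the KCl arrays, against 4.7 and 3.8 on the control arrays, which overlapped (log2 change 0.12). With no filter on dim probe sets, 1 of the 10 passed, U16359cds_at (limma adjusted p = 0.0088), where 6.25% of 1263 did. None of the 3 probe sets of Nos1 and Nos3 passed there, and 0 had an unadjusted p below 0.05, their limma adjusted p running from 0.64 to 0.93. With both groups within background, a fall or a small rise in Nos1 or Nos3 was not detectable.

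The promoter windows of Nos1 and Nos3 are shown because calcium signals reach many activity-dependent genes through the cAMP response element (CRE) and AP-1 sites. Windows run from 250 bases before to 50 after a start position on build GRCr8, and were found for 2 of the 3 genes. That of Nos1 is chr12:44371788-44372087 and that of Nos3 chr4:11706532-11706831, both on the minus strand and written 5′ to 3′. Capitals mark, on either strand, the CRE TGACGTCA, its core TGACG and the AP-1 letters TGANTCA.
Nos1: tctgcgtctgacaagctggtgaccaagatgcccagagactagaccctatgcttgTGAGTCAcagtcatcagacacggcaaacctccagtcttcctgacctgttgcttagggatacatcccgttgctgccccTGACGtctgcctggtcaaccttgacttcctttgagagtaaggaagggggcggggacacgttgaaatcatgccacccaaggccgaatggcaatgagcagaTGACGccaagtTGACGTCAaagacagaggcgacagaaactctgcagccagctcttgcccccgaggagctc
Nos3: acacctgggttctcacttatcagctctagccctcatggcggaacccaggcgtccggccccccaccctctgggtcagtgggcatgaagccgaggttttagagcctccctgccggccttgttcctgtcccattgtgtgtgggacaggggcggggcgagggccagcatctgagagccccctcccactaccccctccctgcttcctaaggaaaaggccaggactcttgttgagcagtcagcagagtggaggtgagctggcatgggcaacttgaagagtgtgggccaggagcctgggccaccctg
The Nos1 window held 1 full CRE, starting 9 bases before the start position used, and 4 matches of the core. Of these 4, 2 lie within that CRE, 1 on each strand. The Nos1 window also held 1 AP-1 match, and the Nos3 window held none of the 3. Of 33469 rat promoter windows of this length, 1.83% held the full CRE, 21.2% the core and 7.33% the AP-1 letters. The Nos3 window spans the 5′ end of its annotated gene, at 11706604. That of Nos1 lies inside the annotated gene (chr12:44276011-44456371, minus strand), far from its 5′ end at 44456371. The Nos1 matches are therefore not placed relative to that end. These matches are letters only and say nothing of binding.

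By the likeness of values over the 4 arrays, the tested probe sets of other genes closest to U16359cds_at were those of Crem, Nr4a1, Junb, Fosl2 and Bdnf. Likeness was the Euclidean distance between log2 intensities centred on each probe set's mean, over 848 candidates, and it ran from 0.60 for Crem to 0.77 for Bdnf. Crem, Nr4a1, Junb and Fosl2 encode transcription factors. Their log2 changes were 2.40, 2.82, 2.99 and 2.40, and that of the Bdnf probe set 2.42. For U67309_at of Nos1 the closest was Slc1a1, a neuronal glutamate transporter gene, at a distance of 0.06, followed by Jak1, Rab1b, Sstr4 and Kcnh3, with log2 changes between −0.45 and −0.39. For AF085195_at of Nos3 it was Ccr1, at 0.07, followed by Cacna1a, Gnb1, Tf and Kcnj4, with changes between 0.06 and 0.24. The Nos1 and Nos3 values and the control values of U16359cds_at lay within background, and all distances rest on 4 arrays that share the same contrast.

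None of the genes tested for the partners and regulators of the synthases passed. Of 25 listed, 15 were named on the array and tested, and 0 passed in limma, against 10.8% of the 947 probe sets. At an unadjusted p below 0.05 there were 2, against 25.6% of the 947 (5 by an ordinary t statistic, of which 0 passed after adjustment). These 2 were Camk2d, a calcium/calmodulin-dependent kinase gene, with a log2 change of −0.36 ± 0.11 (limma adjusted p = 0.075) on one of its 5 probe sets and −0.77 to 0.36 on the others, and Grin1, the obligatory NMDA receptor subunit, with −0.61 ± 0.19 (adjusted p = 0.080) on one of its tested probe sets and 0.13 and −0.41 on the others. Without KCl 2, Grin1 passed as lower. Calm3, which encodes calmodulin, had −0.21 ± 0.10 and Ppp3ca, a subunit of the phosphatase calcineurin, −0.22 ± 0.10. Nos1ap, whose product binds the neuronal enzyme, was above background, at 264 and 190 on the KCl arrays and 281 and 263 on the control arrays (log2 change −0.28 ± 0.21, limma adjusted p = 0.44). Dlg4, the postsynaptic scaffold that tethers it, had −0.23 ± 0.11, and the list's median was −0.04. Nos1ap and Dlg4 were named after their values were seen.

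Few genes upstream or downstream of nitric oxide were named on the array. Of 14 genes for arginine supply and cofactor synthesis, 1 was named, the arginine transporter gene Slc7a2, within background and untested. Of 25 genes for cyclic GMP signalling, 3 were tested, Cnga1, Cnga3 and Gucy2d, and 0 passed or had an unadjusted p below 0.05 in limma (1 by an ordinary t statistic). The listed Gucy1 genes of soluble guanylate cyclase, Prkg1, Prkg2 and Pde5a were not named on the array and could not be followed. Cnga1, a cyclic nucleotide-gated channel gene, was closest, at 85.3 ± 6.6 on the KCl arrays and 50.05 ± 0.07 on the control arrays (SD, n = 2 each; log2 change 0.77 ± 0.36, limma adjusted p = 0.23). The other log2 changes were 0.11 for Cnga3 and 0.39 for Gucy2d.

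Of 29 genes linked to Nos2 induction or to inflammation, 20 were named, 11 were tested and 1 rose, Cebpb. Over the 947 probe sets, 5.49% were called higher. The list mixes both kinds, Il10, Il1rn and Tgfb1 included, and its genes are called inducers below only for short. With 3 of 11 at an unadjusted p below 0.05, against 25.6% of the 947, the list's share was close to that of the array. Cebpb encodes a transcription factor of the C/EBP family. It read 1079 and 953 on the KCl arrays, against 418 and 492 on the control arrays (log2 change 1.16 ± 0.14, limma adjusted p = 0.0014), and its other probe set also rose (1.60 ± 0.25). Cebpb did not pass without control 1, without control 2, without the intensity trend or with an ordinary t statistic, and without KCl 2 Tnfrsf1a, a tumour necrosis factor receptor gene, passed as higher as well. On the probe set of each with the smallest p, the adhesion molecule genes Vcam1 and Icam1 had log2 changes of 0.72 ± 0.27 and 1.11 ± 0.53, and Stat3, a cytokine-activated transcription factor gene, 0.29 ± 0.12, with limma adjusted p-values of 0.14, 0.23 and 0.17. The other tested probe sets of Stat3 had 0.09 and 0.09, and that of Icam1 0.84 (limma adjusted p = 0.86, 0.89 and 0.44). Taking the brightest probe set of each gene, 11 of the 20 lay within background on all arrays. For the cytokine genes Il1b, Tnf, Ifng and Il6, named after their values were seen, every probe set did. The median log2 change of the tested genes was 0.54.

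Of the genes used by the interneurons that often make the neuronal enzyme, 4 were tested and 2 fell (5.28% of the 947 were called lower), Sst and Gad1, which encode somatostatin and an enzyme of GABA synthesis. Sst read 1712 and 1951 on the KCl arrays, against 5491 and 5199 on the control arrays (log2 change −1.55 ± 0.11, limma adjusted p = 4.1e-05). Gad1 read 253 and 346 on the KCl arrays, against 1117 and 931 on the control arrays (−1.79 ± 0.18, adjusted p = 0.00048). Npy and Tacr1 had log2 changes of 0.23 ± 0.16 and 0.18 ± 0.32. Without control 1, and likewise without control 2, 1 of these 4 passed, Sst. In these bulk cultures, fewer cells of a type and less RNA per cell cannot be told apart.

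Cell type markers and RNA quality were read on the same arrays. The summed intensity of 10 neuron markers was 31453 and 32211.5 on the KCl arrays and 33432 and 34580.1 on the control arrays, and Snap25 alone passed, as higher. Without control 1 or control 2 none of them passed, and without KCl 2 there were 3, Map2 and Snap25 as higher and Syn2 as lower. That of 7 astrocyte markers was 12551 and 9974 on the KCl arrays and 5484 and 5219.9 on the control arrays, and 6 of the 7 rose (5.49% of the 947 probe sets were called higher) while Slc1a2 stayed within background. This count was 0 when either control array was left out and 4 when KCl 1 was. No marker was listed at 0, and Gfap, Aqp4 and Aldh1l1 had no probe set with their symbol. Markers were matched by symbol only, so the 118 probe sets without a symbol were not searched for them. Apoe was the brightest of the 7 on every array. The 3 microglia and macrophage markers named on the array, Itgam, Ccl2 and Ccl3, were within background throughout, with sums of 82.7 and 90.5 on the KCl arrays and 65.8 and 59.1 on the control arrays. The 3′ to 5′ ratio of the hexokinase controls was 2.49 and 2.67 on the KCl arrays and 2.25 and 2.00 on the control arrays. The same ratio was 1.19 and 1.17 on the KCl arrays and 1.17 and 1.23 on the control arrays for Gapdh, and 1.08 to 1.12 on all arrays for β-actin. The part of the astrocyte markers and of the hexokinase ratio in the Nos2 result was not tested.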

How the data were processed

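Biotin-labelled cRNA from 5 µg of total RNA was hybridized to 1-colour Affymetrix arrays, per the labels' protocols. The deposited values are linear probe set intensities scaled by the authors; the sources used here name neither the summary algorithm nor the scaling target. Their 2% trimmed means lay between 502.0 and 502.4, so they were used without further scaling. The number of arrays limits the precision. Affymetrix controls and the dimmest 25% (316 probe sets) were left out, and log2 intensities of the other 947 were compared with limma 3.58.1 (R 4.3.3), using lmFit, eBayes with an intensity trend and Benjamini-Hochberg adjustment. Symbols came from the platform annotation, which names 1 gene for 1137 probe sets, several for 8 and none for 118. The members, lists and tests were chosen with earlier results of these data known. Every member was described, and of each list the called genes and the 4 with the smallest p. A gene was called if any probe set passed. Alternatives were other scalings, a pseudocount of 16, other filters and variance models, a replicate block, another threshold, a floor at background and leaving out each array.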

Additional observations from a re-analysis of the deposited data

How the results depend on the processing

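The log2 change of U16359cds_at stayed positive in all 14 alternatives, from 1.86 with the floor at background to 3.02 without KCl 1, and from 2.18 to 3.02 with each array left out in turn. It did not pass without control 1 (2.52, limma adjusted p = 0.14), without control 2 (2.68, adjusted p = 0.16), without the intensity trend (2.60, adjusted p = 0.055) or with an ordinary t statistic (2.60, adjusted p = 0.29), and the number of nitric oxide synthase probe sets called was 0 in these 4 and 1 in the others (0 to 1 with each array left out). No other nitric oxide synthase probe set passed in any alternative that tested it. With each array left out, S71597_s_at ran from −0.22 (without control 2) to 0.96, and D83661_s_at from −0.34 to 0.15 (without control 2), being 0.05 without KCl 2; both are within background. The probe sets called over the whole array numbered 11 to 178 with each array left out, 21 without the intensity trend, 0 with an ordinary t statistic (157 with an unadjusted p below 0.05) and 50 with the replicate block, against 102. Whether arrays with the same replicate number share a preparation is not stated. Same-numbered deviations had a correlation of −0.03 over 947 probe sets, which with 2 arrays per group cannot decide this. The block ended no call among the nitric oxide synthases or the lists (U16359cds_at limma adjusted p = 0.015). With each array left out, 0 to 1 genes passed among the partners, 0 to 2 among the inducers of Nos2 and 1 to 2 among the interneuron genes. Without the trend these were 0, 0 and 1, with an ordinary t statistic 0 each, and 2 partners passed at an adjusted p below 0.10 and 2 inducers with the floor at background. Signal over background limits Nos1 and Nos3, which lay within background.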
